A study of Mus musculus with 8 samples.

Results

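Integrins, and the proteins that tie them to the actin cytoskeleton at focal adhesions, were measured in E18.5 mouse hearts as 40 of 41 listed genes that have a probe on the array, of 19100 genes named there. The 41 were listed by name for their place in cell adhesion, with earlier results of these data known. A probe belonged to one of them when its transcript identifier matched that gene in RefSeq. Of the listed genes only *Itgb8*, an integrin beta subunit, had no matched probe. The 40 genes had 78 probes, of which 72 were tested. A probe was tested when 4 or more of the 8 arrays flagged it as well above background, and 66 of the 72 were so flagged on all 8. The remaining 6 probes were not tested: 1 of *Itga2*, 2 of *Itga4*, 1 of *Itgav* and 1 of *Itgb6* were flagged on no array, and 1 of *Src* on 1 array. All 40 genes kept at least 1 tested probe, 16 of them 1 probe and 24 of them several.

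Hearts of wild type (WT) embryos and of embryos labelled SIRT1 KO were compared, both at E18.5, of strain C57BL/6 by the labels and C57BL/6J by the methods, on chow diet and without treatment, with 4 arrays per genotype. According to the study's methods the knockout is a whole-body germ-line deletion of *Sirt1*, which encodes an NAD-dependent protein deacetylase, and embryos came from crosses of heterozygous parents, with hearts of both sexes used. Such a deletion would be carried by every cell type of the embryo. RNA came from whole hearts, so fewer cells of a type and less RNA per cell cannot be told apart in any value below.

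Integrins are receptors made of an alpha and a beta subunit that bind the extracellular matrix. Talin and kindlin bind the beta tail and switch the receptor on, while vinculin, alpha-actinin, filamin and tensin link it to actin, and the ILK, PINCH and parvin complex, focal adhesion kinase, Src, p130Cas and paxillin pass signals on. In cardiomyocytes these proteins sit at costameres and at intercalated discs, where they couple the myofibrils to the matrix and to neighboring cells.

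The arrays had between 59.5% and 64.9% of probes well above background, and no spot was saturated. The 4 WT arrays share 1 slide and scan and the 4 arrays labelled SIRT1 KO share the other, so slide, scan and genotype cannot be told apart. Neither *Sirt1* probe passed the test as lower in the hearts labelled SIRT1 KO: the log2 difference was 0.54 (standard error 0.115, adjusted p = 0.0323) on probe A_52_P358612 and -0.11 (standard error 0.110, adjusted p = 0.589) on probe A_51_P141152, and whether either probe lies in the deleted stretch is not given in the sources used here. Every direction below therefore compares hearts by their label. All 8 cardiomyocyte markers had a tested probe and none passed the test; their summed signal was 1590 to 1788 times the 75th percentile on the WT arrays and 1634 to 1946 times on the others. Liver markers summed to between 10.02 and 24.1 on the WT arrays and to 102, 16.3, 11.5 and 53.2 on replicates 1, 2, 3 and 4 labelled SIRT1 KO, and replicate 2 labelled SIRT1 KO had a mean Y-linked log2 signal of -7.06 where the other 7 arrays lay between -0.75 and -0.46.

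Most integrin and focal adhesion genes differed little between the genotypes. Signals are given as log2 of the processed intensity minus the 75th percentile of the array, and differences as SIRT1 KO minus WT on that log2 scale. The median difference over the 40 genes, each by its brightest tested probe, was 0.01, with 21 genes above 0 and 19 below, against a median of 0.01 over all 25616 tested probes. With limma and Benjamini-Hochberg adjustment over all tested probes at 0.05, 6 of the 72 member probes passed, 3 higher and 3 lower, where 4.88% of all tested probes passed, 3.97% higher and 0.91% lower. These 6 probes belong to 3 genes: both probes of *Itga6* fell, 2 probes of *Flna* rose, and 2 probes of *Itga1* passed in opposite directions. Counting each gene once by its brightest probe, *Flna* rose and *Itga1* and *Itga6* fell, 3 of 40 genes, where 4.58% of all named genes passed. With the replicate number as a block none of these 3 brightest probes passed (adjusted p = 0.0788 for *Flna*, 0.0715 for *Itga1* and 0.0532 for *Itga6*), while the other called probe of each gene did. Without adjustment 13 of the 72 probes had a p under 0.05, beside 21.5% of all tested probes. Of the 72 probes, 10 had genotypes that did not overlap, 4 higher and 6 lower, beside 13.7% of all tested probes.

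The count of called probes moved with that over all tested probes when arrays were left out. It was 2 without WT replicate 1, 1 without WT replicate 2, 2 without WT replicate 3 and 2 without WT replicate 4, while 3.35%, 2.57%, 2.56% and 3.29% of all tested probes passed. It was 1 without replicate 1 labelled SIRT1 KO, 1 without replicate 2, 6 without replicate 3 and 4 without replicate 4, beside 2.84%, 2.83%, 7.12% and 4.32% of all tested probes. With replicates 1 and 4 labelled SIRT1 KO both left out, the arrays with the highest liver signal, limma called 0 member probes, beside 2.52% of all tested probes, and 12 had an unadjusted p under 0.05. The differences of the 6 called probes were then -0.33 and -0.48 for *Itga6*, -0.44 and 0.99 for *Itga1*, and 0.39 and 0.81 for *Flna*, in a fit of 2 fewer arrays. Without any scaling between arrays 15 probes passed, 1 higher and 14 lower, beside 24.8% of all tested probes, a setting in which the median of all tested probes lay at -0.21, and with each array scaled to its median 6 passed, 2 higher and 4 lower, with the median of all tested probes at -0.12. Over all tested probes the calls were 1017 higher and 233 lower as scaled here, 676 and 1228 with median scaling and 637 and 5710 without scaling.

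**Figure D1:**
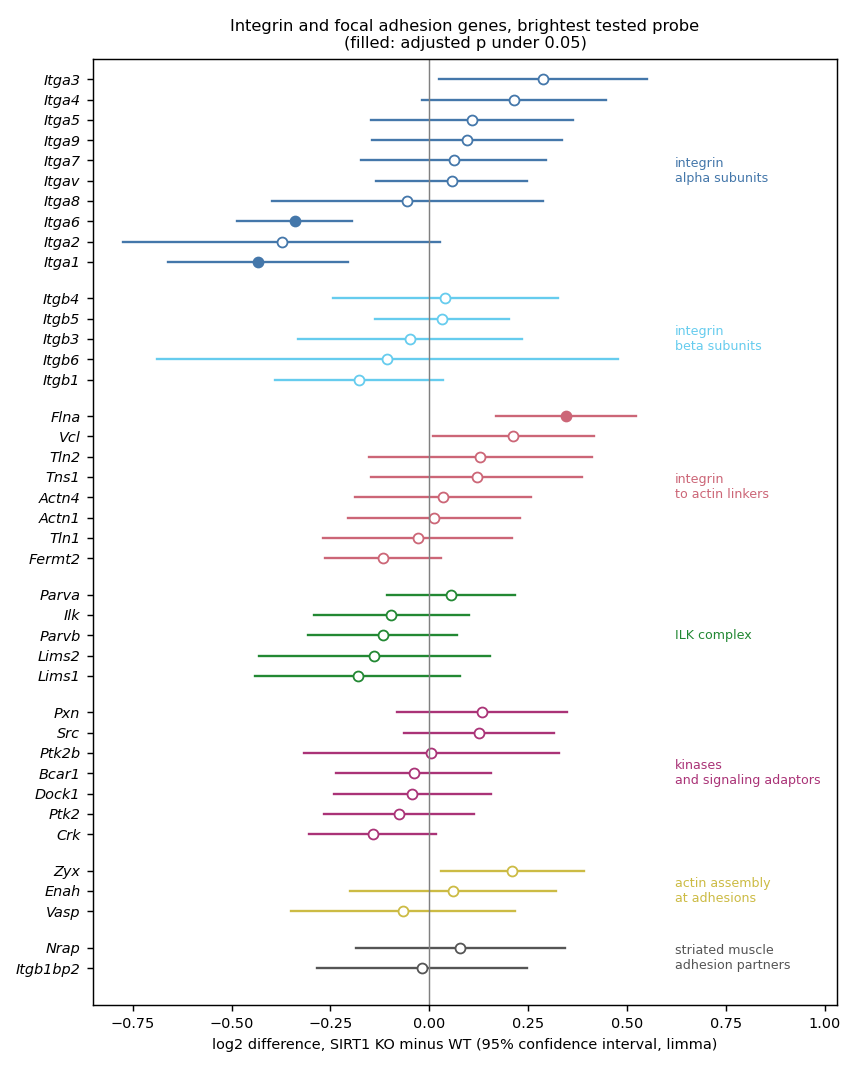
Log2 difference between hearts labelled SIRT1 KO and WT hearts (x axis, SIRT1 KO minus WT, 4 arrays per genotype) of the 40 genes on their brightest tested probe, grouped by role. Points are limma estimates, lines their 95% confidence intervals, and filled points passed an adjusted p of 0.05: *Flna* to the right of 0, *Itga1* and *Itga6* to the left.

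Among the integrin alpha subunits, which set the ligand a receptor binds, 2 of 10 genes fell on their brightest probe, none rose and 8 did not pass. Over all named genes 0.897% fell and 3.68% rose on the brightest probe. *Itga6*, which encodes a laminin-binding subunit, fell on both of its probes. On probe A_51_P262401 its log2 signal was 3.37, 3.50, 3.49 and 3.47 in the WT hearts and 3.11, 3.15, 3.10 and 3.11 in the hearts labelled SIRT1 KO. All 4 latter values lay close together and below every WT value, so the genotypes did not overlap. The difference was -0.34 (standard error 0.0647, adjusted p = 0.0207), a fall by 21.0%. On the dimmer probe A_52_P81270 the log2 signal was 1.15, 1.56, 1.18 and 1.08 in the WT hearts and 0.73, 0.78, 0.75 and 0.70 in the others. Here too every WT value was the higher, with WT replicate 2 well above the other WT arrays, and the difference was -0.50 (standard error 0.107, adjusted p = 0.0322).

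The call of *Itga6* was close to the threshold. On the brighter probe its adjusted p was 0.0592 without WT replicate 2, 0.0726 without WT replicate 3, 0.0586 without WT replicate 4, 0.0599 without replicate 1 labelled SIRT1 KO and 0.0532 without replicate 2, and it stayed past 0.05 without each of the other 3 arrays. On the dimmer probe it was 0.0565 without WT replicate 1, 0.0748 without WT replicate 3, and 0.0804, 0.0742 and 0.0667 without replicates 1, 2 and 4 labelled SIRT1 KO. The difference itself stayed between -0.37 and -0.33 on the brighter probe and between -0.56 and -0.40 on the dimmer one whichever array was left out. With all arrays the brighter probe lost its call with the Y-linked (adjusted p = 0.0513) and liver (0.0721) covariates. The dimmer one lost it with these (adjusted p = 0.0710 and 0.113), with the methods' analysis of variance (0.0831) and without the filter on dim probes (0.0679).

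*Itga1*, whose product pairs with the beta 1 subunit to bind collagen, had 3 tested probes that did not move together. On the brightest, A_52_P459929, the log2 signal was 0.28, -0.01, -0.12 and 0.21 in the WT hearts and -0.38, -0.42, -0.27 and -0.30 in the hearts labelled SIRT1 KO, a difference of -0.43 (standard error 0.100, adjusted p = 0.0436). On A_51_P268944 it was -0.34, -0.94, -0.82 and -0.66 against -1.05, -1.09, -1.07 and -1.12, a difference of -0.39 (standard error 0.122, adjusted p = 0.115). The genotypes did not overlap on either probe, and WT replicate 1 was the highest array on both. The remaining probe, A_52_P518922, went the other way, with -1.41, -1.42, -1.61 and -1.26 in the WT hearts and 0.08, 0.10, -0.96 and -0.74 in the others. All of its values labelled SIRT1 KO were the higher ones, replicates 1 and 2 by far, and the difference was 1.04 (standard error 0.239, adjusted p = 0.0423). All 3 probes are listed under the same RefSeq transcript of *Itga1*.

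Taken within each array, the signal of A_52_P518922 relative to the brightest probe was 1.48 higher on the log2 scale in the hearts labelled SIRT1 KO. This is given as a description, since both probes were already apart in opposite directions. For A_51_P268944 relative to the brightest probe the same difference was 0.05 (exact two-sided permutation p = 0.571), 1 of 13 within-array contrasts computed. *Pelo* lies over *Itga1* in the RefSeq annotation of GRCm38.p6, and its brightest probe differed by 0.01 (adjusted p = 0.947). The array's probe positions were not used here, so which part of the gene each probe reads is not given. The adjusted p of the brightest *Itga1* probe was 0.0947, 0.0770 and 0.110 without WT replicates 1, 2 and 4, and 0.108, 0.115 and 0.0712 without replicates 1, 2 and 4 labelled SIRT1 KO. That of A_52_P518922 was 0.0885, 0.105, 0.113 and 0.0779 without WT replicates 1, 2, 3 and 4, and 0.0966 and 0.0931 without replicates 1 and 2 labelled SIRT1 KO. Both probes lost their call with the methods' analysis of variance (adjusted p = 0.0901 and 0.128), without the filter on dim probes (0.0877 and 0.0829) and with the Y-linked (0.111 and 0.0889) and liver (0.0901 and 0.143) covariates. A_52_P518922 also lost it with quantile normalization (0.0519) and without scaling (0.0532). Without scaling the brightest probe stood at -0.65.

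**Figure D2:**
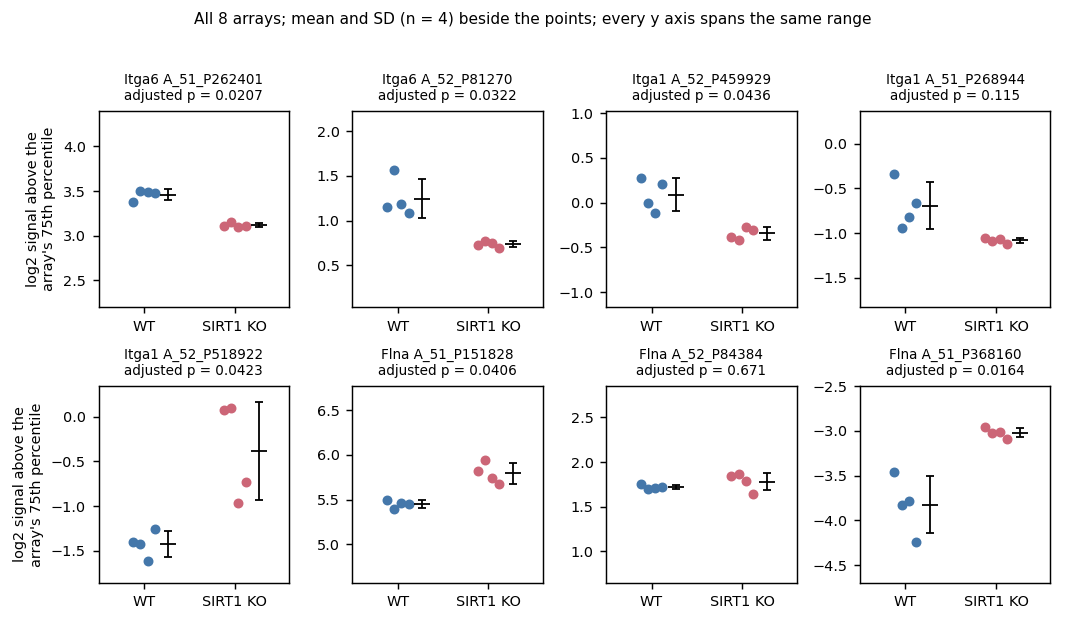
Log2 signal above the array's 75th percentile (y axis, the same span in every panel) on each of the 8 arrays for the tested probes of *Itga6*, *Itga1* and *Flna*, with mean and SD (n = 4) beside the points. Both *Itga6* probes are lower in all hearts labelled SIRT1 KO, the *Itga1* probes split in direction, and the middle *Flna* probe overlaps between the genotypes.

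The other alpha subunits did not pass. *Itga3*, which also binds laminin, had the largest positive difference among the alpha subunits on a brightest probe, 0.29 (standard error 0.116, adjusted p = 0.197), with log2 signals of -1.68, -1.88, -1.61 and -1.53 in the WT hearts and -1.21, -1.54, -1.57 and -1.23 in the others. The overlap came from replicates 2 and 3 labelled SIRT1 KO, which lay at or within the WT range. The difference was 0.15 with the liver covariate, 0.12 with replicates 1 and 4 labelled SIRT1 KO left out, 0.15 with median scaling and 0.07 without scaling. Its dimmer probes gave 0.21 (adjusted p = 0.352) and -0.14 (adjusted p = 0.785). *Itga4*, whose product binds VCAM1 and fibronectin, was at -3.63, -3.15, -3.36 and -3.36 against -3.12, -3.15, -3.26 and -3.12, a difference of 0.21 (standard error 0.103, adjusted p = 0.269), and WT replicate 2 lay among the hearts labelled SIRT1 KO. It passed with normexp background correction (0.31, adjusted p = 0.0453), was 0.13 without WT replicate 1, 0.11 with quantile normalization, 0.12 with cyclic loess and 0.08 with median scaling, and turned to -0.0065 without scaling. *Itga2*, the other collagen-binding subunit of the list, was dim, flagged as above background in 3 of 4 WT hearts and 2 of 4 others. Its log2 signal was -5.15, -5.17, -5.57 and -5.13 in the WT hearts and -5.81, -5.31, -6.03 and -5.36 in the others, a difference of -0.37 (standard error 0.177, adjusted p = 0.264) whose groups overlapped through WT replicate 3. It turned to 0.045 with normexp and was -0.62 with quantile normalization, -0.59 without scaling, -0.24 with array weights and -0.24 without replicate 3 labelled SIRT1 KO. *Itga7*, the main laminin-binding alpha subunit of differentiated muscle, differed by 0.06 (95% confidence interval -0.17 to 0.29). Among the RGD-binding subunits *Itga5*, the fibronectin receptor subunit, differed by 0.11 (-0.15 to 0.36), *Itgav* by 0.06 (-0.14 to 0.25) and *Itga8* by -0.06 (-0.40 to 0.29), and *Itga9* differed by 0.10 (-0.14 to 0.34).

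Within arrays *Itga6* changed by -0.63 relative to *Itga3* and by -0.40 relative to *Itga7*. Against the beta subunits it pairs with, it changed by -0.38 relative to *Itgb4* and by -0.16 relative to *Itgb1*. These pairs were chosen after *Itga6* had been called, so the values are a description and carry no test.

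The integrin beta subunits gave no called probe, and their differences on the brightest probe ran from -0.18 to 0.04. *Itgb1*, the beta subunit shared by most integrins of cardiomyocytes, had the lowest, -0.18 on both of its probes (standard errors 0.0935 and 0.0846, adjusted p = 0.310 and 0.268). Its log2 signal on the brighter probe was 2.80, 3.05, 2.79 and 2.87 in the WT hearts and 2.67, 2.53, 2.77 and 2.82 in the others, so the genotypes overlapped in a narrow range. *Itgb3* differed by -0.05 (-0.33 to 0.23), *Itgb5* by 0.03 (-0.14 to 0.20) and *Itgb4*, the partner of *Itga6* in hemidesmosomes, by 0.04 (-0.24 to 0.33). *Itgb6*, known mainly from epithelia, was dim. Its brightest probe gave -0.11 (adjusted p = 0.848). Another was above background on 4 WT arrays and 1 other array, so it was tested through the WT arrays. Its fitted difference of -0.89 (adjusted p = 0.125) rests on signals at background in 3 of 4 hearts labelled SIRT1 KO.

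Among the 8 linkers between integrins and actin, *Flna* rose and 7 did not pass. *Flna* encodes filamin A, which crosslinks actin and binds integrin beta tails. On its brightest probe, A_51_P151828, the log2 signal was 5.49, 5.40, 5.46 and 5.45 in the WT hearts and 5.82, 5.94, 5.74 and 5.67 in the hearts labelled SIRT1 KO. The genotypes did not overlap, and the difference was 0.34 (standard error 0.0781, adjusted p = 0.0406), a rise of 27.0%. On the dimmest probe, A_51_P368160, the signal was -3.46, -3.83, -3.79 and -4.24 against -2.96, -3.02, -3.02 and -3.09, without overlap and with a difference of 0.81 (standard error 0.145, adjusted p = 0.0164). The middle probe, A_52_P84384, gave 1.76, 1.70, 1.71 and 1.72 against 1.84, 1.86, 1.79 and 1.64. There replicate 4 labelled SIRT1 KO lay below every WT array, and the difference was 0.06 (95% confidence interval -0.10 to 0.22, adjusted p = 0.671). The dimmest probe is listed under another transcript of *Flna* than the other pair.

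Within arrays the middle *Flna* probe changed by -0.28 relative to the brightest one, without overlap (exact permutation p = 0.0286, the smallest that 4 against 4 arrays allow), and the dimmest by 0.46 (exact permutation p = 0.0571). After Benjamini-Hochberg adjustment over the 13 contrasts these were 0.0929 and 0.124. With 0.0286 as the smallest possible p, a contrast could pass only if many of the 13 lay there. The *Flna* contrasts were also chosen after its probes had been called. Their values are given as a description and do not show that the probes changed alike. The call on the brightest probe was lost when single arrays were left out: adjusted p was 0.0770, 0.105, 0.103 and 0.0942 without WT replicates 1, 2, 3 and 4, and 0.103 and 0.104 without replicates 1 and 2 labelled SIRT1 KO. The call on A_51_P368160 was lost without WT replicate 2 (adjusted p = 0.0511) and with the methods' analysis of variance (0.0694), and stayed without each of the other 7 arrays. The difference on the brightest probe also depended on the scaling: it was 0.21 (adjusted p = 0.108) with median scaling and 0.12 (adjusted p = 0.394) without scaling. It did not pass with the methods' analysis of variance (adjusted p = 0.0561) or without the filter on dim probes (adjusted p = 0.0842). *Flna* is on chromosome X, and with the mean Y-linked signal as a covariate the brightest probe differed by 0.30 (adjusted p = 0.100). With the liver covariate it differed by 0.36 (adjusted p = 0.0964).

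*Fermt2*, which encodes kindlin-2, the integrin activator of the heart, had the only other brightest probe on which the genotypes did not overlap. Its log2 signal was 5.46, 5.53, 5.45 and 5.52 in the WT hearts and 5.34, 5.35, 5.36 and 5.44 in the others. The lowest WT value and the highest value labelled SIRT1 KO, 5.45 and 5.44, nearly met, and the difference was -0.12 (standard error 0.0647, adjusted p = 0.334). It was -0.25 (adjusted p = 0.0671) with median scaling and -0.34 (adjusted p = 0.0261), past the threshold, without scaling. Its second probe gave -0.07 (adjusted p = 0.695), with overlap. *Vcl*, which encodes vinculin, differed by 0.21 (standard error 0.0902, adjusted p = 0.215), with signals of 3.08, 2.90, 3.01 and 3.20 against 3.42, 3.21, 3.18 and 3.23. Only WT replicate 4 reached the range of the hearts labelled SIRT1 KO. *Tns1*, a tensin, gave 0.12 (adjusted p = 0.593) on its brightest probe, -0.03 (adjusted p = 0.848) on the next and 0.44 (standard error 0.177, adjusted p = 0.197) on the dimmest, where -0.67, -1.17, -0.86 and -0.79 stood against -0.27, -0.60, -0.82 and -0.04. The last probe is listed under another transcript of *Tns1* than the first pair. The brightest turned to -0.013 with median scaling and -0.10 without scaling. The talins *Tln1* and *Tln2*, which bind the integrin beta tail, differed by -0.03 (-0.27 to 0.21) and 0.13 (-0.15 to 0.41), and the alpha-actinins *Actn1* and *Actn4* by 0.01 (-0.21 to 0.23) and 0.03 (-0.19 to 0.26).

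The 5 genes of the ILK complex gave no called probe, and 4 of them lay below 0 on the brightest probe. *Lims1*, the adaptor PINCH1, differed by -0.18 (95% confidence interval -0.44 to 0.08), *Lims2* by -0.14 (-0.43 to 0.15), *Parvb* by -0.12 (-0.31 to 0.07), *Ilk* by -0.10 (-0.29 to 0.10) and *Parva* by 0.06 (-0.11 to 0.22). A second *Parva* probe did not overlap between the genotypes, at -0.32, -0.29, -0.32 and -0.24 against -0.35, -0.40, -0.38 and -0.37, but its difference was -0.09 (standard error 0.0616, adjusted p = 0.445) and of the other sign than the brighter probe. None of the 8 tested probes of the complex had an unadjusted p under 0.05.

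The 7 kinases and signaling adaptors lay between -0.14 and 0.13 on their brightest probes, with none called. *Ptk2*, encoding focal adhesion kinase, differed by -0.08 (-0.27 to 0.11), its relative *Ptk2b* by 0.01 (-0.32 to 0.33), *Src* by 0.13 (-0.06 to 0.31) and *Bcar1*, encoding p130Cas, by -0.04 (-0.23 to 0.16). The adaptor *Crk* differed by -0.14 (-0.30 to 0.02) and *Dock1*, which activates Rac downstream of it, by -0.04 (-0.24 to 0.15). *Pxn*, encoding paxillin, differed by 0.13 (-0.08 to 0.35) on its brightest probe. Its dim probe A_52_P532973 did not overlap, at -3.62, -3.92, -3.54 and -3.58 against -3.46, -3.26, -3.32 and -3.27, and the difference of 0.34 (standard error 0.0988) had an adjusted p of 0.0903. The dim *Src* probe was flagged on none of the WT arrays and on 1 labelled SIRT1 KO. Its mean over the latter 4 was 1.63-fold above the mean of the lowest signals well above background on the WT arrays. It was not tested. Because the other arrays labelled SIRT1 KO were not flagged, this fold is not a strict bound. It rests on the 1 flagged array, whose log2 signal was -3.04.

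Of the 3 genes of actin assembly at adhesions, *Zyx*, encoding zyxin, differed by 0.21 (standard error 0.0799, adjusted p = 0.176). Its signals were 5.26, 5.33, 5.37 and 5.41 in the WT hearts and 5.65, 5.62, 5.56 and 5.39 in the others, so only replicate 4 labelled SIRT1 KO fell within the WT range. *Enah* and *Vasp*, encoding related proteins that extend actin filaments, differed by 0.06 (-0.20 to 0.32) and -0.07 (-0.35 to 0.22). The striated muscle partners *Nrap*, a protein of myofibril assembly, and *Itgb1bp2*, encoding melusin, which binds the beta 1 tail in muscle, differed by 0.08 (-0.19 to 0.34) and -0.02 (-0.28 to 0.25).

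**Figure D3:**
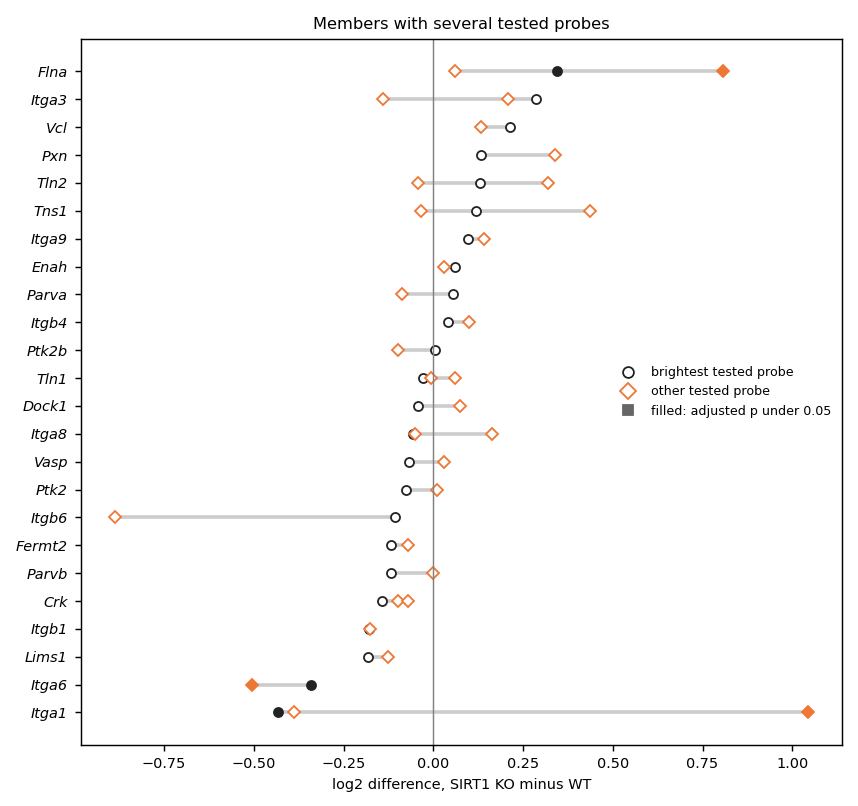
Log2 difference (x axis, SIRT1 KO minus WT) of every tested probe of the 24 genes with several, the brightest as circles and the others as diamonds, filled where the adjusted p was under 0.05. The grey bar spans the probes of a gene: it crosses 0 for 11 genes, and is widest for *Itga1*, from -0.43 to 1.04.

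Probes of 1 gene often differed in sign: they did so in 11 of the 24 genes with several tested probes. All 3 *Itga1* probes had an unadjusted p under 0.05, as did 1 probe each of *Itga3* and *Tns1*. None of the probes of *Tln1*, *Tln2*, *Ptk2*, *Ptk2b*, *Parva*, *Vasp*, *Dock1* and *Itga8* had. In the other 13 genes, *Itga6*, *Itgb1* and *Flna* among them, all tested probes had 1 sign.

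Promoters were read for the genes whose genotypes did not overlap on the brightest probe. RefSeq promoter entries of GRCm38.p6, each with 250 bases before and 50 after the start, were found for 30 of the 41 genes, 36 promoters in all. *Itga1*, *Flna* and *Fermt2* were among them, while *Itga6*, also without overlap, had no entry and was not read. Capitals mark a GGGCGG, the core of a GC box, on either strand (CCGCCC when on the other), the palindrome CAGCTG, an E-box, and the CArG box, the element that serum response factor binds in many actin cytoskeleton genes. TATAAA was also searched on both strands, and none of the marked motifs overlap. All 3 lie on the minus strand, at chr13:115101915-115102214 (*Itga1*), chrX:74246485-74246784 (*Flna*) and chr14:45530016-45530315 (*Fermt2*), and are written 5′ to 3′ along the gene.
Itga1: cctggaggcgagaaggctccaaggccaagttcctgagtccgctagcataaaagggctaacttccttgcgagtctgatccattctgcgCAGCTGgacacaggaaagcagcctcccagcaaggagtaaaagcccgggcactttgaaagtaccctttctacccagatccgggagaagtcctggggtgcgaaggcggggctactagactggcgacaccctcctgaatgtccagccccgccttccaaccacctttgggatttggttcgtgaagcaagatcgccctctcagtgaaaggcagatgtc
Flna: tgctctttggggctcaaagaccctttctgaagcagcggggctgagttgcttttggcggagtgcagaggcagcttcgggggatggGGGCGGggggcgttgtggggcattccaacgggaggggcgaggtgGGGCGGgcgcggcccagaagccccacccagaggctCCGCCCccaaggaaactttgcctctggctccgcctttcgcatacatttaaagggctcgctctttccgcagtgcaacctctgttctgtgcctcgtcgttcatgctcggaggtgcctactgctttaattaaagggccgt
Fermt2: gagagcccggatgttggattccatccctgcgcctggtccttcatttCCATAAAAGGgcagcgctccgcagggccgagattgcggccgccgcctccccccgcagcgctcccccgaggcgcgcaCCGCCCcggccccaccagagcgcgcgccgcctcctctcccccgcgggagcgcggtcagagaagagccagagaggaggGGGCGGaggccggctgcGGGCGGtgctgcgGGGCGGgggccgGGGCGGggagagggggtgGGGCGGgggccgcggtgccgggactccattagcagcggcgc
The *Itga1* window holds 1 CAGCTG and no GGGCGG, the *Flna* window 3 GGGCGG, and the *Fermt2* window 6 GGGCGG and 1 CArG box. Over all genes of the list with an entry, GGGCGG was in 69.4% of promoters, where 35.7% of all 32851 promoters held it, and CAGCTG in 22.2%, where 16.3% did. The CArG box was in 3 promoters, those of *Fermt2*, *Itgb6* and *Vcl*, and in 1.63% of all promoters, and TATAAA was in 2.78% against 13.6%. These are matches of letters in short windows and are given as a description.

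Other adhesion genes outside the 41, chosen by role, were read from the same fit. Of 110 listed, 98 had a tested probe, with 164 tested probes. Of these probes 2 rose and 1 fell, where 4.88% of all tested probes passed, and none of the 3 was the brightest of its gene. *Itgal*, the alpha subunit of the leukocyte integrin LFA-1, was at -3.80, -3.76, -3.88 and -3.77 in the WT hearts and -3.25, -3.34, -3.20 and -3.43 in the others on probe A_51_P466378, a difference of 0.50 (standard error 0.0760, adjusted p = 0.00792). Its brightest probe differed by 0.13 (adjusted p = 0.545). *Flnc*, the filamin of striated muscle, differed by 0.52 (standard error 0.111, adjusted p = 0.0330) on probe A_51_P349844, and by 0.36 (adjusted p = 0.115) on its brightest. *Fn1*, encoding fibronectin, the ligand of the alpha 5 beta 1 integrin, differed by -0.47 (standard error 0.109, adjusted p = 0.0442) on probe A_52_P11817 and by -0.38 (adjusted p = 0.104) on its brightest. The 3 tested *Flnc* probes all lay above 0 and the 3 tested *Fn1* probes all below. *Spp1*, encoding the integrin ligand osteopontin, had the largest difference of this list, 2.12 (standard error 0.518, adjusted p = 0.0530), without overlap. The called number was 3, 1, 1 and 1 without WT replicates 1, 2, 3 and 4, beside 3.35%, 2.57%, 2.56% and 3.29% of all tested probes. It was 3, 2, 6 and 1 without replicates 1, 2, 3 and 4 labelled SIRT1 KO, beside 2.84%, 2.83%, 7.12% and 4.32%.

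Several of these genes are also expressed outside cardiomyocytes, so markers of other cell types were read beside them. The 5 epicardial markers all lay below 0 (median difference -0.54), with a summed signal of 16.6 to 19.5 times the 75th percentile on the WT arrays and 8.99 to 16.2 on the others, without overlap. The 5 endothelial markers also lay below 0 (median -0.12), at 35.8 to 41.3 against 31.3 to 37.7, and the 5 platelet and megakaryocyte markers too, at 4.07 to 5.87 against 3.39 to 4.61, both with overlap. Epithelial markers were lower without overlap (3.83 to 4.44 against 2.17 to 3.75). Of these 4 only *Krt18* was tested, and it made up nearly all of the sum, at 3.81 to 4.42 against 2.14 to 3.61. Erythroid markers (220 to 261 against 174 to 215) were also lower without overlap, with 1 of 4 tested markers above 0. Fibroblast markers (158 to 192 against 168 to 184) and skeletal muscle markers (37.5 to 49.1 against 31.3 to 44.3) overlapped, and so did lung markers (0.0156 to 0.0811 against 0.0556 to 0.107), none of which was tested. The Schwann cell marker *Sox10* (0.80, adjusted p = 0.0199) and the skeletal muscle marker *Myog* (0.52, adjusted p = 0.0291) passed as higher, and no other tested marker of the 13 lists passed. *Pax7* of the skeletal muscle list and *Sftpb* of the lung list were not above background on any array. Both *Itga6* and *Itga1* are known from endothelium and other non-muscle cells, and the part of any of these cell types in their falls was not tested. Smooth muscle markers, of a cell type in which *Flna* is abundant, overlapped between the genotypes, at 131 to 165 against 123 to 179, with 1 of 4 above 0. The macrophage and leukocyte list, beside which *Itgal* was read, had 5 of 6 genes above 0 and summed to 1.68 to 2.34 against 1.61 to 2.80.

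**Figure D4:**
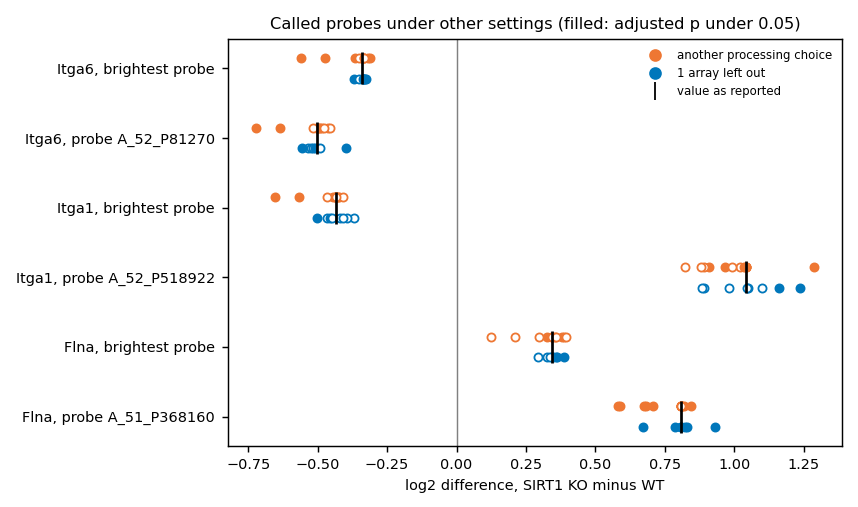
Log2 difference (x axis, SIRT1 KO minus WT) of the 6 called probes under each other processing choice and with each array left out in turn, filled where the adjusted p was under 0.05 and with a bar at the value as reported. No probe crossed 0 in any of these settings, while many points are open, as for the brightest *Flna* probe between 0.12 and 0.39.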

How the data were processed

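RNA from 4 WT and 4 SIRT1 KO E18.5 mouse hearts, 500 ng per array, was labeled with Cy3 and hybridized to one-color Agilent whole mouse genome arrays. The authors deposited the Feature Extraction output of each array (version 12.0.0.7 in the file headers, 12 in the submitters' processing notes), in which the intensity of each spot has been background-subtracted by the software with one-color defaults and not scaled between arrays. The flags for outlier spots and for signal well above background, and a series table whose intensity values equal the processed signal on 100% of spots, were also deposited. According to the study's methods, probes were compared there with an analysis of variance and Benjamini-Hochberg correction; its factors are not given in the sources used here. The study gives 4 embryos per genotype for these arrays.

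Here spots marked as controls or outliers were dropped, log2 of the processed intensity was taken, the 75th percentile of each array's non-control spots was subtracted, and spots of a probe were averaged. Probes were named by unversioned accession through RefSeq (GRCm38.p6), 28228 of 41174 probes (68.6%). The test, run on the 25616 probes flagged well above background on 4 or more of the 8 arrays, was limma 3.58.1 (lmFit, eBayes) in R 4.3.3 and Benjamini-Hochberg adjustment over all of them. A gene with several probes is represented by its brightest tested probe. Fold bounds for probes at background use the lowest signal well above background. Simulated arrays had the spreads of 25535 probes, 200 of them changed by 1 on the log2 scale. There 82% of the changed probes were recovered, with the sign right in 100%, and unchanged probes made up 4.09% of the calls. The simulated arrays were independent, without slide, scan or replicate effects. Smaller changes, such as those of most members, were not simulated, so the 82% does not apply to them. Tables and plots were made with Python 3.11.15, pandas 2.3.3, numpy 2.4.6 and matplotlib 3.10.9. With 4 arrays per genotype, their number limits the precision.

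The members, their roles, the other adhesion list and the marker lists were chosen with earlier results of these data known. The text names each member with a called probe, without overlap on the brightest probe or with probes of both signs and 1 past an unadjusted p of 0.05, and the 3 largest and 3 smallest differences on the brightest probe; other members with an array by array account were picked after their values were seen. Alternatives were other background corrections, other scalings, other filters, the methods' test, array weights, a replicate block, Y-linked and liver covariates, other probes of a gene and leaving out each array; normexp on the median signal and the fit without 2 arrays were added after seeing the data. The summed signal of 1 marker list is not reported here.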

Additional observations from a re-analysis of the deposited data

Results flagged for a closer look

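Among the probes of the members named by rule, 36 groups of 4 arrays were examined for an array far from the others, and 2 were picked out, where chance picks about 1 in 20. *Itga2* probe A_51_P441983 was lowest in WT replicate 3, at -5.57 with the nearest WT array at -5.17, a gap of 0.917 of the range of the WT arrays. *Itga3* probe A_51_P230405 was highest in WT replicate 3, at -4.35 with the nearest WT array at -4.89, a gap of 0.948 of the range. Both are dim probes, and neither passed the test. No cause was tested.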

How the results depend on the processing

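The 6 called member probes kept their direction under every processing choice run and with each array left out. The number called, 6 (4.88% of all tested probes), became, each beside the share of all tested probes, 7 (10.02%) with normexp on the median signal, 15 (24.8%) without scaling between arrays, 2 (2.40%) without a filter on dim probes, 1 (2.13%) with the methods' analysis of variance, 1 (2.99%) with the Y-linked covariate, 1 (2.72%) with the liver covariate, 0 (2.52%) with replicates 1 and 4 labelled SIRT1 KO left out, and 1 to 6 (2.56% to 7.12%) with 1 array left out. The other adhesion list went from 3 to 11 (10.02%) with normexp on the median signal, 7 (7.43%) with median scaling and 35 (24.8%) without scaling. It became 7 (8.89%) with array weights, 1 (2.40%) without a filter and 1 (2.13%) with the methods' analysis of variance. With 1 array left out it was 1 to 6 (2.56% to 7.12%). The median difference of 0.01 became -0.12 with median scaling and -0.21 without scaling, in both equal to the shift of all probes to within 0.00047, and ran from -0.02 to 0.05 with 1 array left out.

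With the replicate block the member count was 3, that of the other list 4 and that of all tested probes 1185 (4.63%), and the brightest probes of *Itga1*, *Itga6* and *Flna* no longer passed. The design text speaks of pairs, but what a pair shares is not given in the sources used here. Same-numbered arrays deviated together with correlations of 0.204, 0.207, 0.0562 and 0.141. Each array correlated best with its own number, so the arrays may be paired by number. The main fit does not use such a pairing, and the calls of these brightest probes depend on that choice.

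Reversed values, none of them of a called probe except where another probe of *Itga1* was read (1.04), were 0.045 for *Itga2* with normexp, -0.0065 for *Itga4* without scaling, -0.013 with median scaling and -0.10 without scaling for *Tns1*, and -0.14 and -0.033 on another probe of *Itga3* and *Tns1*. For changes under scaling the shift of all probes is the measured part; otherwise the cause was not tested. The planned normexp on the mean signal was not run, and the median signal was used in its place. Signal over background limits the dim probes of *Itga2*, *Itgb6* and *Src*.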
